A study of Homo sapiens with 4 samples.

Results

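The promoters of 39 genes of the WNT pathway were taken by gene symbol from the 20242 promoters measured, namely 19 WNT ligands, 10 Frizzled (FZD) receptors and 10 secreted antagonists of the SFRP, FRZB, DKK and WIF1 families, and each symbol was present once. The cells were JMJD3c-hESCs, made from SEES-3, an established human embryonic stem cell line, and kept without feeder cells. They stably expressed the reverse Tet transactivator and carried a piggyBac vector for a Dox-inducible, HA-tagged catalytic domain of the H3K27 demethylase JMJD3 (JMJD3c) with a nuclear localisation signal, and stable clones were selected with puromycin. How many clones were used is not given in the sources used here. Chromatin immunoprecipitation sequencing (ChIP-seq) with 2 antibodies, for histone H3 with trimethylated lysine 27 (H3K27me3) or lysine 4 (H3K4me3), was done on untreated cells (−Dox), which carry the same transgenes, and on cells given doxycycline at 1 µg/ml (+Dox) to switch on JMJD3c. Cells were collected on day 3, and each mark and condition is represented by 1 library. There was no replicate, so no difference below has a replicate check and no p-value is given.

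WNT proteins are lipid-modified secreted ligands that bind Frizzled receptors on the surface of neighbouring cells. In the canonical branch, Frizzled and its co-receptors LRP5 and LRP6 stabilise β-catenin, which then acts with TCF/LEF factors in the nucleus, whereas non-canonical branches act on cell polarity and movement. SFRP proteins, FRZB and WIF1 bind the ligands outside the cell, and DKK1 blocks the co-receptors. In embryonic stem cells many developmental promoters, including those of signalling genes, carry H3K27me3, a Polycomb mark of repression, together with H3K4me3, found at promoters in use or held ready for use, and are called bivalent. WNT signalling takes part in forming the primitive streak and the mesoderm.

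The value of a promoter is the authors' sequencing coverage, scaled to library reads and added up over a 6 kb window centred on the transcription start. A value above 20, the threshold of the study's methods, counts as marked. The libraries held an estimated 2629351 reads (H3K27me3 −Dox), 2682085 (H3K27me3 +Dox), 3509244 (H3K4me3 −Dox) and 2682085 (H3K4me3 +Dox), and a value of 20 stood for only about 15.7 to 21.0 reads. The +Dox/−Dox ratio of a promoter is given with its 95% interval in parentheses, obtained from an exact Clopper-Pearson interval on the approximate reads. It covers counting error only and compares 2 libraries, not 2 conditions, and a promoter is said to have risen or fallen only where this interval leaves out 1. Since each library averages all cells, a lower mark in every cell and its loss from some of the cells cannot be told apart. Among 10 pluripotency genes, 9 promoters had H3K4me3 only in −Dox, against 54.2% of all promoters, and H3K27me3 was at most 12.9 in −Dox and 14.9 in +Dox. Their H3K4me3 interval lay below 1 at 2 of the 10, against 3.11% of all promoters with a ratio. None of 6 fibroblast genes was above 20 for H3K27me3, as for most promoters (11% of all were above 20), and 3 of the 6 had H3K4me3 only. In both conditions 6 of 7 mesoendoderm and 6 of 6 neuroectoderm genes were above 20 for H3K27me3. The libraries do not measure the transgene.

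In −Dox cells, H3K27me3 was above 20 at 20 of the 39 promoters, against 11% of all promoters. These were 10 ligands, 4 receptors and 6 antagonists. Of the 20, 18 were also above 20 for H3K4me3 and were thus bivalent, against 9.42% of all promoters. The bivalent promoters were those of 9 ligands (WNT1, WNT2, WNT3A, WNT4, WNT5B, WNT6, WNT7A, WNT10B and WNT11), 4 receptors (FZD1, FZD2, FZD8 and FZD10) and 5 antagonists (SFRP1, SFRP5, FRZB, DKK1 and DKK3). Both others, WNT10A and WIF1, had H3K27me3 only (1.58% of all promoters), although H3K4me3 at WNT10A, at 18.5, lay just under the threshold. Another 9 promoters had H3K4me3 only, against 54.2% of all promoters: WNT5A, WNT7B, WNT9A, FZD3, FZD4, FZD5, FZD6, FZD7 and SFRP2. The remaining 10 were unmarked, against 34.8% of all promoters. For 6 of these 10 (WNT2B, WNT3, WNT9B, WNT16, SFRP4 and DKK2) the deposited start lay 3633 to 247376 bases from the canonical start, outside the measured 6 kb window, so the marks at the canonical promoter were not measured. Only WNT8A, WNT8B, FZD9 and DKK4 were unmarked with the canonical start in the window. WNT5B also had a deposited start far (99340 bases) from the canonical one, and WNT5A one 2639 bases away. The windows of DKK1, FZD4, FZD6, FZD10 and WNT5A, among others, also hold the start of a long non-coding RNA, and marks of such a start and of the member cannot be told apart.

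**Figure D1:**
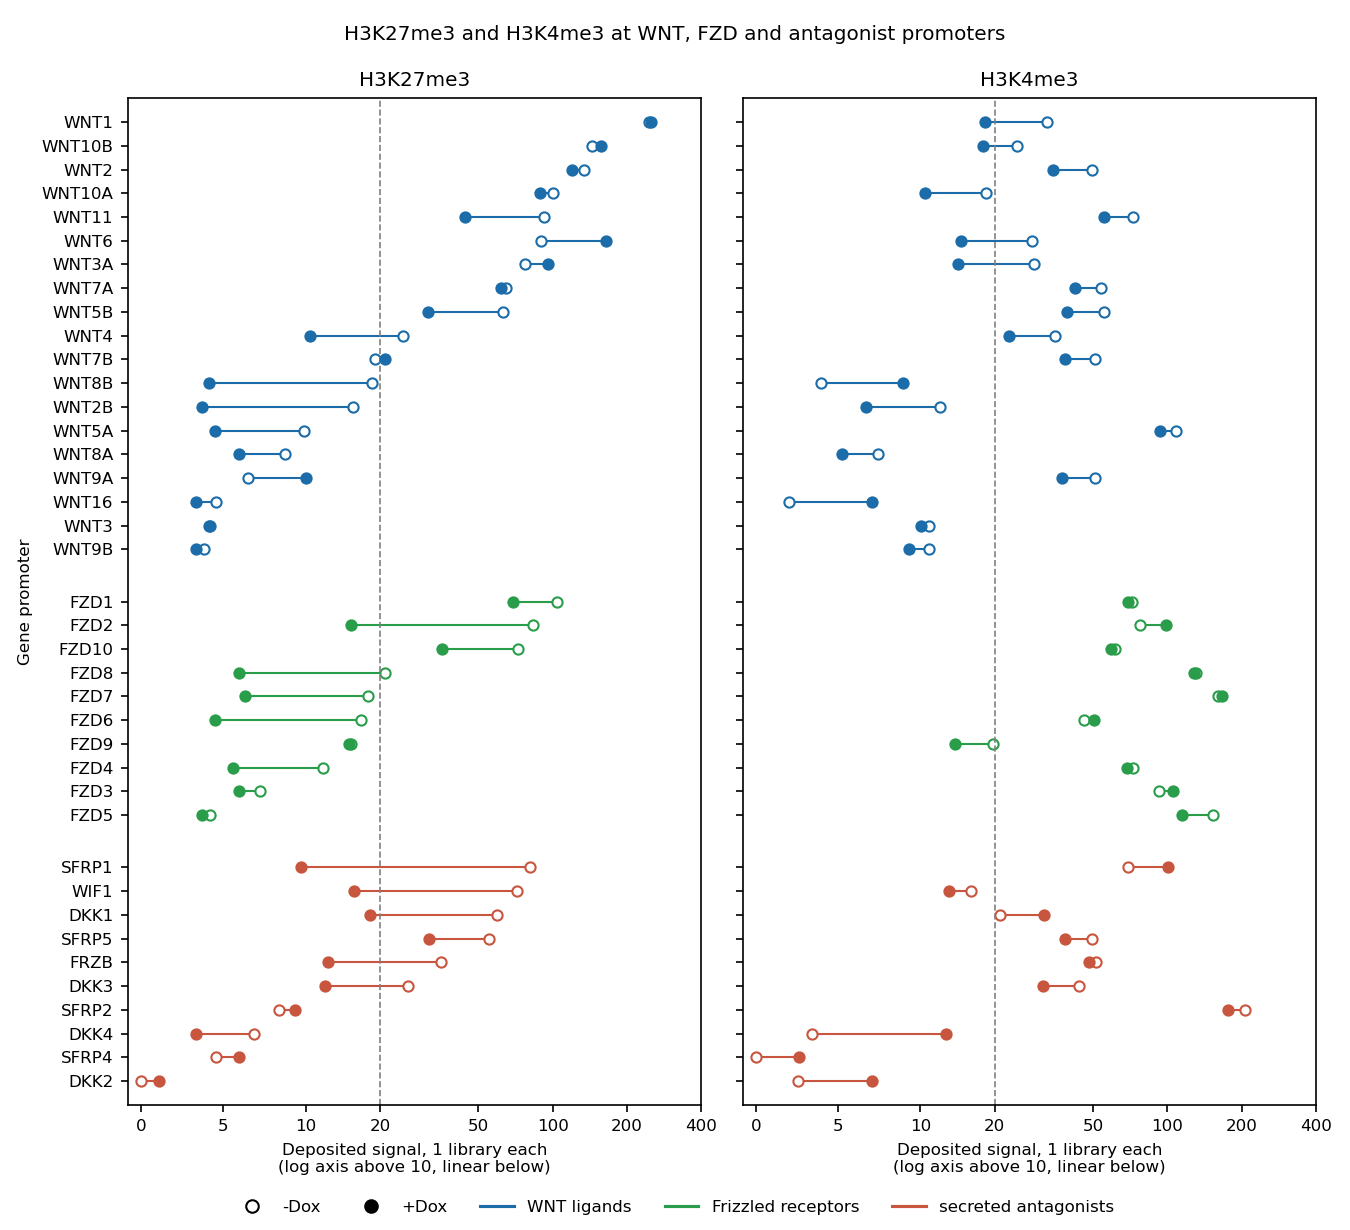
H3K27me3 and H3K4me3 signal (summed coverage, horizontal axis, linear below 10 and logarithmic above) at each of the 39 promoters in −Dox and +Dox cells, 1 library each, with a dashed line at 20. The ligands with the strongest H3K27me3, WNT1 (246 and 251) and WNT10B (144 and 157), keep their position, whereas the antagonist SFRP1 moves from 81.0 to 9.69.

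The DNA of these promoters is shown for members at both ends of the response and for a promoter of each other kind. WIF1 and FZD8 had the lowest H3K27me3 ratios, and WNT6 and WNT3A the highest, among marked members of the RefSeq promoter table. SFRP2 had the highest H3K4me3 of the promoters with H3K4me3 only, and WNT8A was unmarked. Each run has 250 bases before and 50 after the RefSeq start on the gene's own strand (RefSeq, GRCh38.p14), with every CG dinucleotide in capitals. The positions are chr12:65121256-65121555 (minus strand) for WIF1, chr10:35642247-35642546 (minus) for FZD8, chr2:218859555-218859854 (plus) for WNT6, chr1:228006748-228007047 (plus) for WNT3A, chr4:153789034-153789333 (minus) for SFRP2 and chr5:138083783-138084082 (plus) for WNT8A. The same letters were found inside the measured windows of the files' build.
WIF1: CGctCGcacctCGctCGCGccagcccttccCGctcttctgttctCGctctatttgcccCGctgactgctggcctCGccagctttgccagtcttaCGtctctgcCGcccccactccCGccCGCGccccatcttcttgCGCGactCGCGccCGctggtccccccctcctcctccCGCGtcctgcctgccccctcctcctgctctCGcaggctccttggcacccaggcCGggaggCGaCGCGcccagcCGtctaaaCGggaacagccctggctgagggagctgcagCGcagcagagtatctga
FZD8: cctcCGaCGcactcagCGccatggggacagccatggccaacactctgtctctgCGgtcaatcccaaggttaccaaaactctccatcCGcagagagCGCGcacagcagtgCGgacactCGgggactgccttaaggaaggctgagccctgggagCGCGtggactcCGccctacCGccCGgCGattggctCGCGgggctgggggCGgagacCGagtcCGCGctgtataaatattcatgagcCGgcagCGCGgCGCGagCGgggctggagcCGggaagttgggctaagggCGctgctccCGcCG
WNT6: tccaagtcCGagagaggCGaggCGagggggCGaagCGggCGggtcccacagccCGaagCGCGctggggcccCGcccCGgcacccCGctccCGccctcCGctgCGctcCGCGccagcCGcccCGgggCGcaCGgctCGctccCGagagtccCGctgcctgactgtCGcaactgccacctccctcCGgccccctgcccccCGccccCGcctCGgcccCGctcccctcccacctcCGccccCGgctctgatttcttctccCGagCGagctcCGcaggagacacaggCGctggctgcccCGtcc
WNT3A: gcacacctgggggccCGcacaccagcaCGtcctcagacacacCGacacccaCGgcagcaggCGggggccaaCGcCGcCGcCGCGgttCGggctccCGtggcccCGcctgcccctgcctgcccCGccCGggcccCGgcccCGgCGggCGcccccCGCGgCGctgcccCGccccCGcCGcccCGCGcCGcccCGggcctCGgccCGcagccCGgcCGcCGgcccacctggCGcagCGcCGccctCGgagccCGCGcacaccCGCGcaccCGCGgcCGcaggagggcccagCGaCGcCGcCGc
SFRP2: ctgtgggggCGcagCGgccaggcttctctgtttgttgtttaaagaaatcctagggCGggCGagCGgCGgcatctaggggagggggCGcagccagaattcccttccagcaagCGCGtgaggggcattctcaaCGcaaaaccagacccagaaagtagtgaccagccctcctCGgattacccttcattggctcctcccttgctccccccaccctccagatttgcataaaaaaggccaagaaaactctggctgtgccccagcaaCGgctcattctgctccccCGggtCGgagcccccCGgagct
WNT8A: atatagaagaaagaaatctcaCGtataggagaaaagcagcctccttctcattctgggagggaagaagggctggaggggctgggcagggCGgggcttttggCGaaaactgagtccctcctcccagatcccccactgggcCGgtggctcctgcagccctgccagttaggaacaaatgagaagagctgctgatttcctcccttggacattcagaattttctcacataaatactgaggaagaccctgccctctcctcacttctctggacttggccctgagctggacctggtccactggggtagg
These runs held 29 CG dinucleotides at WIF1, 31 at FZD8, 37 at WNT6, 49 at WNT3A, 15 at SFRP2 and 4 at WNT8A. Both promoters with low ratios had fewer CG than both with high ratios, though 4 promoters are too few for a comparison, and the unmarked promoter had the fewest. This order did not hold throughout the other members. WNT4, with an H3K27me3 ratio of 0.422, had 47 CG, WNT10A, with 0.884, had 30, and the unmarked FZD9 had 31.

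The RefSeq table held 27 of the 39 members, and for 22 of them the RefSeq promoter lay in the measured window. These 22 promoters had a median of 30.5 CG, against 14 over all 35116 promoters of the table. Motifs were searched on both strands. GGGCGG, the core of the GC box bound by SP1, was found in 20 of the 22, against 45.0% of all promoters of the table. The exceptions were WNT2B and WNT8B, both unmarked. The core promoter motif TATAAA was found in FZD8 and DKK1 only (2 of 22, against 11.5%). Of the TCF/LEF motifs, CTTTGAA was found in DKK1 alone (1 of 22, against 4.43%), and CTTTGAT in none of the 22 (against 2.62%), which says only that these letters are not in the 300 bases read.

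Over the whole 6 kb window the 39 members had a median of 219 CG dinucleotides, against 156 over the 17995 promoters with a position. Bivalent members had a median of 283.5 (all bivalent promoters, 219.5) and unmarked members 87.5 (all unmarked promoters, 78). FZD8 had the most, 492, and DKK2 the fewest, 20. Across the 39 promoters, Spearman's rho between CG number and −Dox signal was 0.75 for H3K4me3 and 0.38 for H3K27me3, against 0.64 and 0.17 over all promoters. These are descriptions across genes, whose values share the same libraries.

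**Figure D2:**
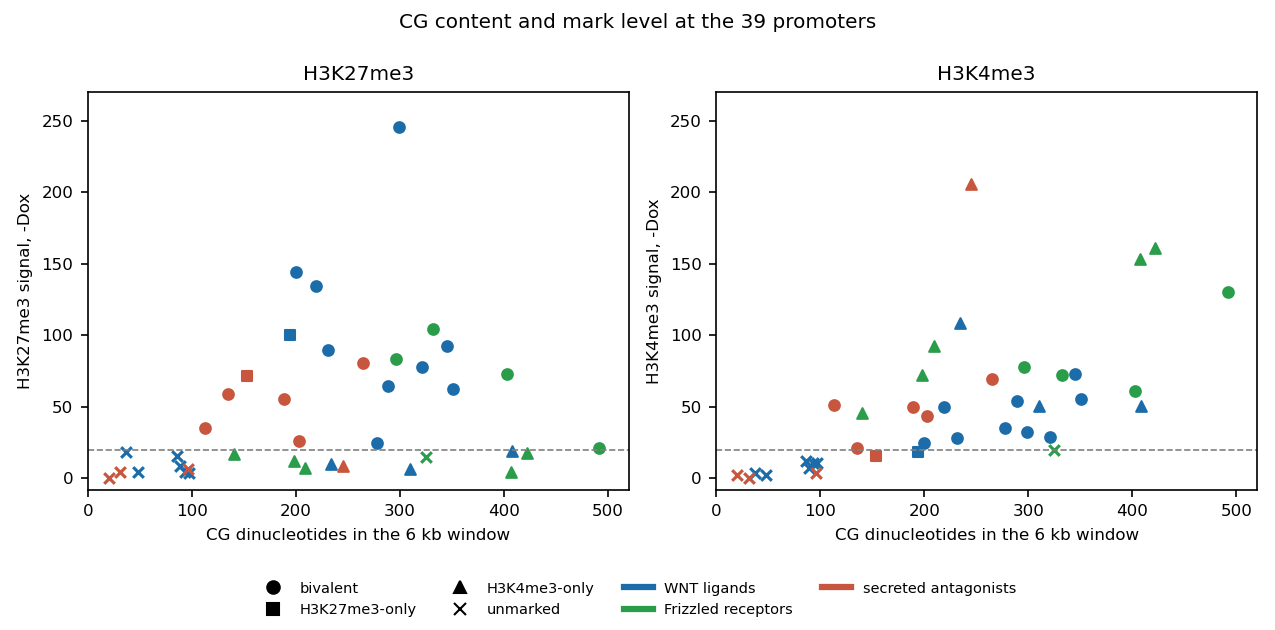
Signal of H3K27me3 and H3K4me3 in −Dox cells (vertical axes, summed coverage) against the number of CG dinucleotides in the 6 kb window (horizontal axes) for the 39 promoters. Colour gives the kind of gene (ligand, receptor or antagonist), marker shape gives the class, and a dashed line lies at 20. Unmarked promoters lie at the left, at a median of 87.5 CG, except FZD9 with 325.

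The first question for induction was what happened to H3K27me3 at the ligand promoters. Before induction it was above 20 at 10 of the 19 ligands and after induction again at 10. The summed signal of the 10 that were marked in −Dox was 1037 in −Dox and 1024 in +Dox. These values are scaled to library reads and compare shares of reads, not amounts of the mark. A fall shared by the whole genome is hidden in them, and the paper's immunoblots showed less total H3K27me3 after Dox. WNT1, a signal of the midbrain-hindbrain boundary, had the highest H3K27me3 of all members, 246 in −Dox and 251 in +Dox, with a ratio of 1.02 (0.834 to 1.25). Its neighbour WNT10B had 144 and 157, a ratio of 1.09 (0.838 to 1.42). WNT2, which acts in lung and heart development, had 134 and 119, a ratio of 0.889 (0.667 to 1.18). None of these 3, each above 100, moved beyond counting error.

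WNT6 was the only member at which H3K27me3 rose relative to library reads. It had 89.8 in −Dox and 164 in +Dox, a ratio of 1.83 (1.36 to 2.48), and an interval above 1 was found at 1 of the 20 marked members against 2.92% of all marked promoters and 1.53% of all promoters with a ratio. WNT3A, which maintains paraxial mesoderm, had 77.6 and 96.2, a ratio of 1.24 (0.875 to 1.76). WNT10A, next to WNT6 and active in teeth and skin appendages, had 100.4 and 88.7, a ratio of 0.884 (0.633 to 1.23). WNT7A, a dorsal signal of the limb, had 64.7 and 61.5, a ratio of 0.952 (0.630 to 1.44). The marked members with a ratio above 1 were 4 of 20, against 14% of all marked promoters, and all 4 were ligands (WNT1, WNT3A, WNT6 and WNT10B).

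H3K27me3 fell at 3 of the 10 marked ligands, against 47.3% of all marked promoters. WNT11, a non-canonical ligand of gastrulation movements and heart development, had 92.4 in −Dox and 44.4 in +Dox, a ratio of 0.480 (0.312 to 0.726). WNT5B, another non-canonical ligand, measured at its distant start, had 62.8 and 31.3, a ratio of 0.499 (0.296 to 0.822). WNT4, needed in kidney and reproductive tract development, had 24.7 and 10.4, a ratio of 0.422 (0.164 to 0.993). Its upper bound was 1.17 with both libraries scaled to the same total and 1.01 with scaling over promoters low in the mark. WNT11 and WNT5B thus remained above 20 in +Dox cells, and WNT4 did not.

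H3K27me3 fell at all 4 marked Frizzled promoters, against 47.3% of all marked promoters. The interval of FZD1, however, came to include 1 (0.542 to 1.10) after scaling both libraries to an equal total. FZD2, on chromosome 17 with its start at 42634852 (GRCh37), had 83.3 in −Dox and 15.3 in +Dox, a ratio of 0.184 (0.091 to 0.341). FZD8 had 20.9 and 5.97, a ratio of 0.285 (0.0796 to 0.822), from a −Dox value just above the threshold. FZD10 had 72.6 and 35.8, a ratio of 0.493 (0.303 to 0.784). FZD1, close to FZD2 and FZD7 in sequence, had 105 and 69.0, a ratio of 0.659 (0.460 to 0.938). The summed H3K27me3 of these 4 was 281 in −Dox and 126 in +Dox, and 2 of them, FZD1 and FZD10, stayed above 20.

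Among the secreted antagonists, H3K27me3 fell at 5 of the 6 marked promoters, against 47.3% of all marked promoters. It was above 20 at 6 of the 10 before induction and at SFRP5 alone after it, and the summed signal of the 6 was 329 and 99.5. SFRP1, a soluble protein with a Frizzled-like ligand-binding domain, had 81.0 in −Dox and 9.69 in +Dox, a ratio of 0.120 (0.0489 to 0.252), the lowest of all marked members. WIF1, which binds WNT ligands through a domain of another family, had 71.9 and 15.7, a ratio of 0.218 (0.108 to 0.406). DKK1, the inhibitor of LRP5 and LRP6 that is needed for head formation, had 59.3 and 18.3, a ratio of 0.308 (0.159 to 0.563).

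The other 3 antagonists had weaker H3K27me3 in −Dox cells than these. FRZB, a relative of the SFRPs studied in cartilage, had 35.4 and 12.3, a ratio of 0.348 (0.150 to 0.741). SFRP5, close to SFRP1, had 55.1 and 31.7, a ratio of 0.575 (0.338 to 0.959). DKK3, a divergent member of the DKK family, had 25.9 and 11.9, and its ratio of 0.461 (0.190 to 1.04) did not leave out 1.

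Over the 39 members, H3K27me3 was above 20 at 20 promoters before induction and at 13 after it, against 6.73% of all promoters in +Dox cells. The ratio was below 0.5 at 11 of the 20 marked members, against 40.4% of all marked promoters: 3 of 10 ligands, 3 of 4 receptors and 5 of 6 antagonists. The interval lay below 1 at 12 of the 20, against 47.3%, again 3 ligands, with 4 receptors and 5 antagonists. For the 39 genes as a whole these shares were thus not far from the background. The median log2 ratio was −0.12 (95% interval over genes −1.06 to 0.31) for the 10 marked ligands, −1.42 for the 4 receptors and −1.61 (−3.06 to −0.80) for the 6 antagonists, against −0.79 over all marked promoters. The ligand median was 0.11 when both libraries of the mark were scaled to the same total, so its sign depends on the scaling. The ratios of the marked ligands, 0.422 to 1.83, overlapped those of the receptors, 0.184 to 0.659, and those of the antagonists, 0.120 to 0.575. A difference between the groups of genes was not tested, since each condition had 1 library. Promoters were counted as marked by the −Dox value, the denominator of the ratio, which can lower the ratios, most near the threshold. The same holds for all marked promoters. With classes from the +Dox values, which can raise the ratios, the medians were −0.02 for 10 ligands, −0.81 for 2 receptors and −0.80 for 1 antagonist. When both libraries of a mark were scaled to the same total, the log2 H3K27me3 ratio of every promoter rose by 0.23. The count below 0.5 was then 7, the intervals of WNT4, FZD1 and SFRP5 came to include 1, and that of WNT3A (ratio 1.46, 1.03 to 2.08) came to lie above 1.

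**Figure D3:**
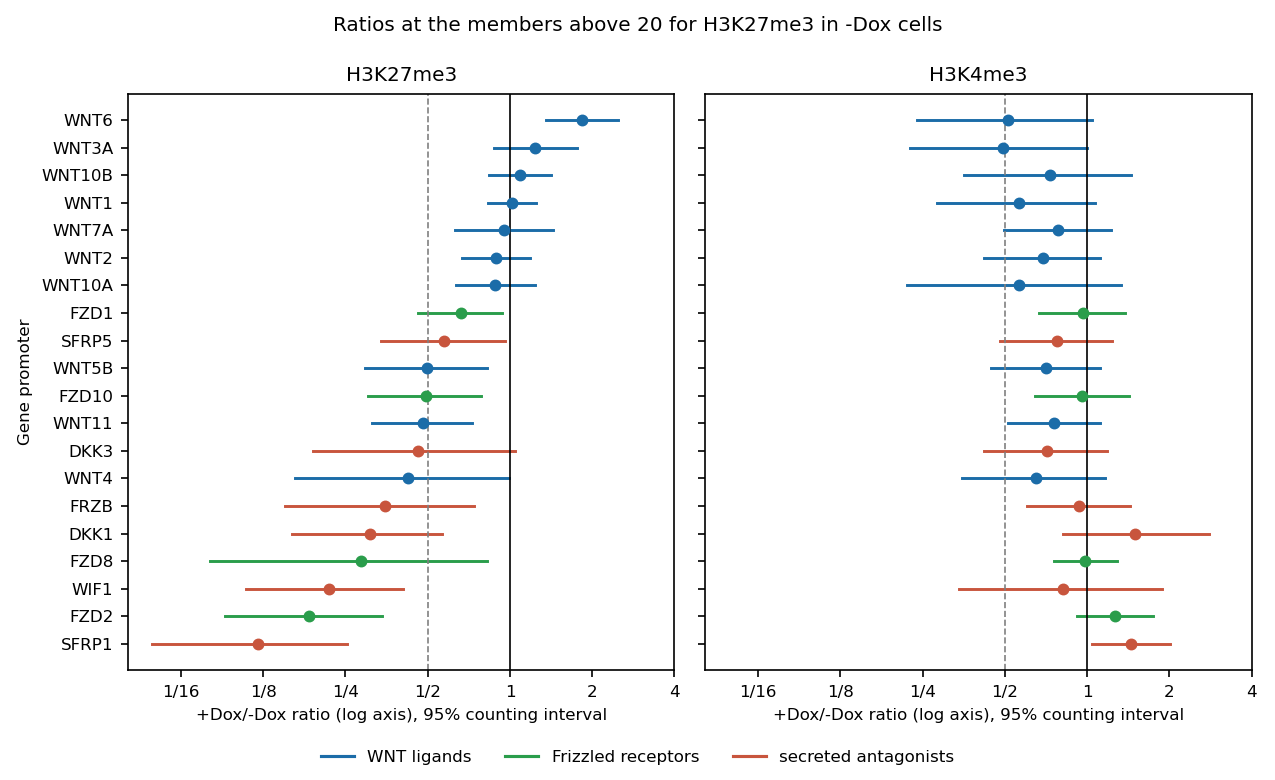
H3K27me3 and H3K4me3 ratio (+Dox/−Dox, logarithmic horizontal axes) of the 20 promoters above 20 for H3K27me3 in −Dox cells, with bars for the 95% counting interval, a solid line at 1 and a dashed line at 0.5. For H3K27me3, WNT6 (1.83) lies above 1 with its whole bar and SFRP1 (0.120) lies lowest, and for H3K4me3 all 10 ligands lie left of 1 with bars that reach it.

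The level of H3K27me3 in −Dox cells moved with the ratio, although this level is also the denominator of the ratio, so they are not independent. Over all promoters the median log2 ratio was −1.03 for −Dox values of 20 to 50, −0.73 for 50 to 100 and −0.15 over 100. Of the 5 members over 100, 4 were ligands, with a median of −0.07, and the other, FZD1, had −0.60. Between 50 and 100, where all 3 groups of genes had members, the 5 ligands had a median of −0.07, the 2 receptors −1.73 and the 4 antagonists −1.95. The ligands and the antagonists of this range did not separate completely, because WNT11 (0.480) and WNT5B (0.499) had lower ratios than SFRP5 (0.575). The part of the −Dox level in the differences between the gene groups was not tested.

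Whether H3K4me3 differed as well was examined next. Before induction 27 of the 39 promoters were above 20 (63.7% of all promoters), and after it 23 (62.7%), and the 4 that went under the threshold were ligands. All 12 ligands above 20 had a lower value in +Dox cells, with ratios from 0.492 to 0.862, against 56.9% of all promoters above 20. This also held for the 12 under both other scalings. Without these scalings none of the 12 intervals left out 1, but with the scaling over low promoters those of WNT3A and WNT6 lay below 1. Of the 18 bivalent members 15 had a lower value, against 67.6% of all bivalent promoters, and these included all 9 bivalent ligands. Of the 9 receptors above 20, 5 had a lower value, and of the 6 antagonists, 4. The summed H3K4me3 of the 12 ligands was 590 in −Dox and 428 in +Dox, that of the 9 receptors 867 and 861, and that of the 6 antagonists 442 and 425.

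The lowest H3K4me3 ratios of the 12 ligands were those of WNT3A, WNT6 and WNT1. WNT3A had 28.8 in −Dox and 14.2 in +Dox, a ratio of 0.492 (0.225 to 1.00). WNT6 had 28.2 and 14.5, a ratio of 0.515 (0.238 to 1.04), and WNT1 had 32.5 and 18.3, a ratio of 0.562 (0.283 to 1.06). These 3 were also among the ligands whose H3K27me3 ratio exceeded 1. With the libraries scaled over promoters low in the mark, the upper bounds for WNT3A and WNT6 were 0.942 and 0.983.

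The other H3K27me3-marked ligands had H3K4me3 ratios between 0.564 and 0.782. WNT10A had 18.5 and 10.4, WNT10B 24.5 and 17.9, and WNT2 49.6 and 34.3. WNT4 had 35.1 and 22.7, WNT5B 55.3 and 39.1, WNT7A 53.9 and 42.1, and WNT11 72.7 and 55.2. All of them were lower in the +Dox library and none beyond counting error.

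Among receptors and antagonists H3K4me3 rose at SFRP1 and DKK4 and fell at FZD5. SFRP1 had 69.5 in −Dox and 100.3 in +Dox, a ratio of 1.44 (1.04 to 2.01). DKK4 went from 3.42 to 12.7, a ratio of 3.71 (1.03 to 17.6) that rests on about 4 and 10 reads. A rise was thus called at 2 of the 38 members with a ratio, against 1.8% of all promoters, and neither call held with the scaling over low promoters (lower bounds 0.976 and 0.971).

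FZD5, which acts in gut and eye development, was low in H3K27me3 (4.18 and 3.73) and had H3K4me3 of 154 and 114, a ratio of 0.745 (0.570 to 0.969). It was the only member called lower, 1 of 38 against 3.11%. FZD2 had H3K4me3 of 77.8 and 98.4, a ratio of 1.27 (0.917 to 1.75), and DKK1 had 21.1 and 31.7, a ratio of 1.5 (0.817 to 2.79). FZD1 had 72.1 and 69.3, FZD8 130 and 128, and FZD10 61.3 and 58.9. FRZB had 51.6 and 48.1, SFRP5 49.6 and 38.4, DKK3 43.9 and 31.3, and WIF1 16 and 13. The intervals of these 9 promoters included 1.

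The ratios of both marks ran against each other over the 18 bivalent members. Pearson's r between the log2 ratios was −0.83 and Spearman's rho −0.73, against −0.36 and −0.36 over all 1907 bivalent promoters. The 2 sets differ in level, with a median −Dox H3K27me3 of 75.1 for the members and 43.0 for all bivalent promoters. The part of this level in the correlations was not tested. SFRP1, DKK1 and FZD2, with H3K27me3 ratios from 0.120 to 0.308, were the only bivalent members with more H3K4me3 in +Dox cells. At the other end, WNT6 and WNT3A had the highest H3K27me3 and the lowest H3K4me3 ratios. This is a description across genes, with no test, since all points come from the same 4 libraries and some of the genes are neighbours.

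**Figure D4:**
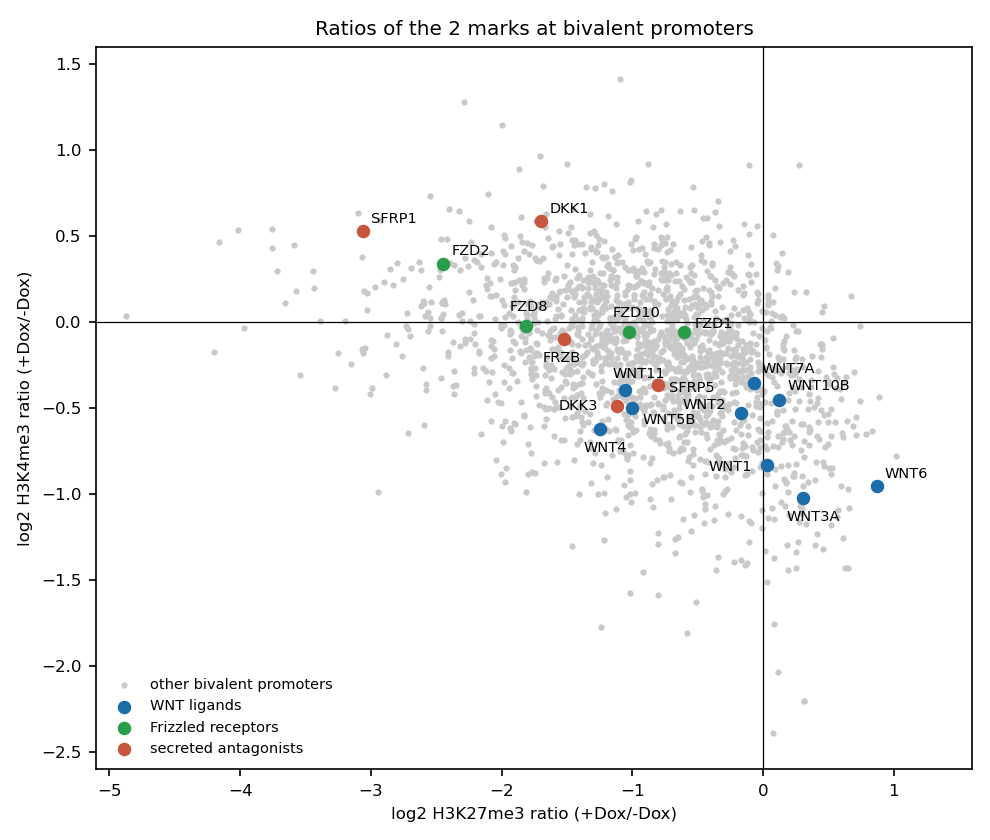
Log2 H3K4me3 ratio (vertical axis) against log2 H3K27me3 ratio (horizontal axis), each +Dox/−Dox, for the bivalent promoters, with the 18 members coloured by kind and the other promoters in grey. The members run from SFRP1 at the upper left (−3.06 and 0.53) to WNT6 at the lower right (0.87 and −0.96).

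By class, 7 of the 18 bivalent members had only H3K4me3 above 20 in +Dox cells, against 39.1% of all bivalent promoters. These were 1 ligand (WNT4), 2 receptors (FZD2 and FZD8) and 4 antagonists (SFRP1, FRZB, DKK1 and DKK3). Another 7 stayed bivalent (51% of all), namely WNT2, WNT5B, WNT7A, WNT11, FZD1, FZD10 and SFRP5. The last 4 kept H3K27me3 alone, against 7.24%, and were the ligands WNT1, WNT3A, WNT6 and WNT10B. For WNT10B this step was from 24.5 to 17.9 in H3K4me3, and for WNT1 from 32.5 to 18.3, so both ended close to the threshold. Before any further scaling, the H3K4me3 intervals of all 4 included 1, so the change of class did not exceed counting error. WIF1 became unmarked and WNT10A kept H3K27me3 only. WNT7B was the only member to cross the H3K27me3 threshold upwards, from 19.0 to 20.9, a ratio of 1.10 (0.514 to 2.37), with H3K4me3 of 50.7 and 38.4. In all, 8 members were bivalent in +Dox cells, against 5.07% of all promoters.

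Some of the ligand genes are neighbours. WNT1 and WNT10B, with starts 6587 bases apart on chromosome 12 and no shared window, each had a strong H3K27me3 signal in both libraries of the mark. WNT6 and WNT10A, 21046 bases apart on chromosome 2, had ratios of 1.83 (1.36 to 2.48) and 0.884 (0.633 to 1.23), and these intervals did not overlap. WNT3A and WNT9A, 59066 bases apart on chromosome 1, differed in class, as WNT9A had H3K27me3 of 6.47 and 10.1 and H3K4me3 of 50.7 and 37.3. The deposited starts of WNT3 and WNT9B were 168 bases apart with 5832 bases of shared window, so their values are almost a single measurement. WNT3, a ligand of the primitive streak, had H3K27me3 of 4.18 and 4.10 and H3K4me3 of 10.8 and 10.1 there. WNT9B had H3K27me3 of 3.80 and 3.36 and H3K4me3 of 10.8 and 9.32.

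At the 9 promoters with H3K4me3 only, H3K27me3 was near or under the threshold in both conditions. Their H3K27me3 was 4.18 to 19.0 in −Dox and 3.73 to 20.9 in +Dox, and their H3K4me3 45.9 to 206 and 37.3 to 176. FZD6, a receptor of planar cell polarity, was the only one of the 9 at which H3K27me3 fell. It had 16.7 in −Dox and 4.47 in +Dox, a ratio of 0.267 (0.0581 to 0.900). FZD7, a receptor abundant in embryonic stem cells, had 17.9 and 6.34, a ratio of 0.355 (0.101 to 1.03), with H3K4me3 of 161 and 167. SFRP2 had the highest H3K4me3 of all members, 206 and 176, and H3K27me3 of 8.37 and 9.32. WNT5A, FZD3 and FZD4 had ratios whose intervals included 1 for both marks.

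Among the 10 unmarked promoters H3K27me3 was 0 to 18.6 in −Dox and 1.12 to 14.9 in +Dox. It fell at WNT8B, a ligand of the forebrain, from 18.6 to 4.10, a ratio of 0.220 (0.0447 to 0.750), and its H3K4me3 was 3.99 and 8.95. H3K27me3 also fell at WNT2B, from 15.6 to 3.73, a ratio of 0.239 (0.0433 to 0.882) on about 12 and 3 reads. H3K4me3 there was 12 and 6.71. The WNT2B start measured is far from the canonical one, but another RefSeq start of the gene lies 893 bases from it. With WNT8B, WNT2B, FZD6 and the 12 marked members, H3K27me3 fell at 15 of 38 members against 7.12% of all promoters with a ratio. In this background most promoters are unmarked for H3K27me3. FZD9 had 15.2 and 14.9. No ratio was formed for DKK2, at 0 for H3K27me3 in −Dox, or for SFRP4, at 0 for H3K4me3 in −Dox, where 3 reads would have given 3.81 and 2.86.

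The other genes of the pathway were read from lists of co-receptors, R-spondins and their receptors, polarity genes, ligand processing, other extracellular inhibitors, transducers and widely used target genes. Of 58 such genes 16 were above 20 for H3K27me3 in −Dox cells (11% of all promoters), and 2 of the 16 had a ratio below 0.5 (40.4% of all marked promoters). CER1, a secreted antagonist of NODAL, BMP and WNT signals, had 87.5 in −Dox and 25.0 in +Dox, a ratio of 0.286 (0.164 to 0.475). PRICKLE1, a planar polarity gene, had 27 and 8.95, a ratio of 0.331 (0.121 to 0.801). H3K27me3 fell at 4 of the 58, close to the 7.12% of all promoters with a ratio. Some of the 58 were at 0 in −Dox and had no ratio. The 4 were CER1, PRICKLE1, LEF1 and PTK7. LEF1 had 105 and 70.1, a ratio of 0.665 (0.466 to 0.945). PTK7 had 10.6 and 1.12, a ratio of 0.105 (0.00167 to 0.830), from a −Dox value under the threshold. H3K27me3 rose at 1 of the 58, against 1.53%, namely CDX2, a caudal homeobox gene (181 and 234, ratio 1.29, 1.03 to 1.62). Of the 9 genes listed as R-spondins and their receptors, 5 were above 20 in both conditions and none had a ratio below 0.5.

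H3K4me3 fell at 4 of the 58 other genes, against 3.11% of all promoters with a ratio, and rose at none, against 1.8%. NOTUM, a secreted enzyme that removes the lipid of WNT ligands, had H3K4me3 of 53.9 and 23.5, a ratio of 0.436 (0.244 to 0.746), with H3K27me3 of 73.4 and 73.1. NKD1, a feedback inhibitor, had H3K4me3 of 57.0 and 30.6, a ratio of 0.536 (0.321 to 0.871). KREMEN2, a DKK co-receptor, had 89.5 and 54.4, and MYC had 211 and 161. The transducers of the signal were mostly free of H3K27me3, with 15 of 18 carrying H3K4me3 only, against 54.2% of all promoters.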

How the data were processed

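ChIP-seq reads were made by the authors on a MiSeq and, per the labels and the study's methods, mapped to hg19 with Bowtie2, with CASAVA also named in the submitters' processing notes. The deposited values are signal, namely coverage from ngs.plot that the authors scaled to the reads of the library and added up from 3 kb before to 3 kb after the start of 1 transcript per gene. The methods also describe scaling profiles by the read density beyond gene ends, without saying whether these values had it. Input libraries were not used here. Scaling to reads hides a loss shared by the whole genome, and the paper's immunoblots showed a fall in total H3K27me3 after Dox.

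In each library 100% of the values were whole multiples (within 0.01 of a step) of a fixed step, read as 1 read at 1 data point, and 1 read covered about 3.34 data points. This gave approximate reads, in all 197645, 171355, 965831 and 719944 in the windows (H3K27me3 −Dox and +Dox, H3K4me3 −Dox and +Dox), which were used only for intervals. These cover counting error only, because reads are not independent molecules. Ratios are plain +Dox/−Dox ratios without pseudocount, and the interval code was tested on simulated data. Classes were set on −Dox values with a threshold of 20. Intervals of medians come from order statistics over genes.

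Transcript identifiers were matched to GENCODE 44 on GRCh37 (17996 of 20242 promoters, 88.9%, with the strand the same in 100%). RefSeq promoters (GRCh38.p14) were located in GRCh37 by exact match. The members and gene lists were chosen with earlier results of these data known. All 39 members are named, and other genes only where an interval leaves out 1. For sequences, the unmarked promoter with the lowest summed marks in the table, SFRP4, lay outside its measured window, and the next one inside, WNT8A, was taken instead. Python 3.11.15, numpy 2.4.6, pandas 2.3.3 and scipy 1.17.1 were used. Alternatives were 2 other library scalings, a pseudocount of 5, class thresholds of 10 and 30, classes from +Dox or mean values, a minimum mean of 10, 3 or 4 data points per read, and members with a start within 1000 bases of the canonical one.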

Additional observations from a re-analysis of the deposited data

How the results depend on the processing

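Of 89 recomputed summary values, 76 stayed within the spread or within 1.5 times the reported count, 13 moved and no value past a call turned its direction. H3K27me3 fell at 15 members as reported, at 10 with libraries of a mark scaled to the same total, and at 17 or 11 with 3 or 4 data points per read. These counts are among those within 1.5 times. All 228 recomputed values of single members moved by less than their counting interval. Those intervals are wide beside the shifts made, so this outcome was nearly fixed in advance, and several calls of single members changed. The number of marked members with an H3K27me3 ratio below 0.5 was 11 as reported, 7 with libraries of a mark scaled to the same total, 6 with a pseudocount of 5 and 3 with classes from the +Dox values. The number of bivalent members was 18 as reported, 11 at a threshold of 30 and 8 with classes from the +Dox values. The number of bivalent members with H3K4me3 only in +Dox was 7 as reported, 3 at a threshold of 30 and 4 with classes from the mean of both conditions. An H3K27me3 interval above 1 was found at 1 member as reported and at 2 (WNT6 and WNT3A) with the same total. An H3K4me3 interval below 1 was found at 1 member as reported, at 4 with the scaling over low promoters (FZD5, WNT3A, WNT6 and SFRP2) and at 2 with 3 data points per read. An H3K4me3 interval above 1 was found at 2 members as reported, at 0 with the scaling over low promoters, and at 1 with a minimum mean of 10 or with 4 data points per read. The cause of these shifts was not tested beyond what each setting itself changes. Same-total scaling raised log2 ratios by 0.23 for H3K27me3 and 0.04 for H3K4me3, and scaling over low promoters by 0.03 and −0.09. H3K27me3 intervals of WNT2B and FZD6 also came to include 1 with the same total. With 4 data points per read those of WNT2B, WNT4, FZD6 and SFRP5 included 1. No paired analysis was possible because only 1 library stands for each mark and condition, and leaving out a library would leave nothing to compare. A value of 20 stood for 15.7 to 21.0 reads, so ratios of promoters near or under it have wide intervals. The median log2 H3K27me3 ratio of the marked ligands was −0.12 as reported and 0.11 with the same total, both inside its interval over genes, so its sign depends on the scaling.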
